A study of Danio rerio with 2 samples.

Results

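Meiotic entry in the adult zebrafish testis was examined by setting primary spermatocytes (SPC-I), the cells of the first meiotic prophase, against type B spermatogonia (SPG-B), the last spermatogonia before meiosis. The cells were chosen by stage label. In replicate 1 the label was that of the study's own cell annotation, and in replicate 2 each cell took the majority label of its 15 nearest annotated cells. SPC-I held 438 cells in replicate 1 and 834 in replicate 2, and SPG-B held 178 and 151. These were 1601 of 5979 cells with a stage, from 9980 cell barcodes in the files.

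Both samples were scRNA-seq libraries of whole dissociated testes from zebrafish aged 6 months, made with 10x Genomics 3′ chemistry, in which a unique molecular identifier (UMI) is added to every captured transcript. The labels call the fish adult and wild type in their growth entry and transgenic in their extraction entry, and no treatment separated the cells. Each library therefore held both stages, and the number of fish behind each library is not given in the labels. Within a library the UMIs of a stage were summed over its cells, so each stage had n = 2 sums. The p-values rest on the spread between the 2 libraries within a stage, estimated over the sums of all stages together. Sums of the same library entered that fit as independent. The spread also holds any difference between the study's own labels and the majority labels, since the libraries were labelled in different ways.

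Meiosis starts from a last round of DNA replication, after which homologous chromosomes are built into axes of cohesin and HORMA-domain proteins, broken by Spo11, repaired through strand exchange with the homologue and held together by the synaptonemal complex. Chromosome ends attach to the nuclear envelope during the same prophase, and the proteins of the mitotic division are held back until the meiotic divisions. Male germ cells also begin in prophase to transcribe genes that are used later to build the sperm flagellum.

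The 4 sums differed in depth. SPC-I sums held 2990412 UMIs in replicate 1 and 5432442 in replicate 2, against 1520184 and 1045980 in SPG-B. The median SPC-I cell carried 6349 UMIs in replicate 1 and 5860 in replicate 2, against 7461.5 and 7152 in SPG-B, so that the SPC-I median was 0.835 ± 0.022 (SD, n = 2) of the SPG-B median. The ratio was below 1 in both replicates at the mitochondrial limit of 5% used here. With a limit of 10% its mean was 0.973, and in replicate 2 it was 1.09. Median numbers of detected genes were 2444 and 2392.5 in SPC-I and 2562.5 and 2402 in SPG-B.

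The marker genes of each stage were present under its label, which is no independent check. The study named its clusters by some of these markers, among them ddx4, piwil1, eno3, e2f5, ripply2, sycp3 and edrf1. Levels are given as CPM, the usual scaling of UMI counts to a total that all sums share, in this paragraph by the plain UMI total of each sum and in all others with the TMM factors of edgeR. Summed over the 7 spermatocyte markers found, levels were 13327 and 13392 CPM in SPC-I, against 4528 and 6090 CPM in SPG-B. The 8 spermatogonial markers summed to 3278 and 2975 CPM in SPC-I, against 4738 and 4622 CPM in SPG-B. Of these 8, 2 had a positive log2 fold change, e2f5 among them. SPG-B already carried spermatocyte markers at a lower level, and SPC-I still carried spermatogonial markers. The 7 spermatid markers summed to 1379 and 1725 CPM in SPC-I, against 348 and 296 CPM in SPG-B. The 9 Sertoli cell markers summed to 199.6 and 204 CPM in SPC-I, against 171 and 196 CPM in SPG-B, with 2 of them at 0 in all 4 sums. Nearly all of it was dmrt1, at 196.6 and 195.9 CPM in SPC-I, against 168 and 186 CPM in SPG-B and 228 and 231 CPM in undifferentiated type A spermatogonia (SPG-Aun), and each other member was at most 3.82 CPM in the 4 sums. The 4 erythrocyte markers summed to 3.68 and 5.71 CPM in SPC-I, against 4.60 and 1.91 CPM in SPG-B. The 5 Leydig cell markers summed to 52.5 and 118 CPM in SPC-I, against 25.7 and 75.5 CPM in SPG-B, and the 7 immune markers to 68.9 and 97.4 CPM in SPC-I, against 57.2 and 84.1 CPM in SPG-B. Of the 5 immune markers tested, 4 had a positive log2 fold change (median of the 5 0.35). The exception, rac2, a small GTPase of blood cells, was called lower in SPC-I (log2 fold change -1.17 ± 0.34 SE, edgeR adjusted p = 0.0139), a call lost without replicate 1 of SPG-B. rac2 was at 8.69 and 9.76 CPM in SPC-I, against 21.7 and 21.0 CPM in SPG-B and 19.8 and 22.9 CPM in SPG-Aun. The part of RNA from other cells in the results below was not tested.

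The limits of the labels bear on every value. When the labels of annotated cells of replicate 1 were hidden and voted again, 407 of 438 SPC-I cells (92.9%) but only 83 of 178 SPG-B cells (46.6%) got their label back, with 65 SPG-B cells voted to SPG-Aun and 24 to SPC-I. In replicate 2, 740 of 834 SPC-I cells but 30 of 151 SPG-B cells were carried by at least 10 of 15 votes. The labels of replicate 1 also rest on clusters made from the same cells' expression, so the fold changes and adjusted p-values describe how these stages differ and are not independent of how they were drawn. Genes of the lists used here were left out of the variable genes of the vote in replicate 2. Genes outside the lists were open to that vote. Of the 20 largest rises and the 20 largest falls named below, only 5 and 7 were in a list. The others, such as iqcg and meiosin, are not independent of the labels of replicate 2 either.

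A gene was called higher or lower in SPC-I where edgeR's quasi-likelihood test gave a Benjamini-Hochberg adjusted p under 0.05, the log2 fold change was beyond 1 in size, and both replicates had the same direction. Of 14041 genes tested, 2162 (15.4%) were called higher and 1161 (8.27%) lower, while 4440 (31.6%) passed the adjusted p alone. The replicates of the stages did not overlap in 9324 genes (66.4%). The step was larger in rises than in falls at a wider limit too, with 1116 genes over 4-fold higher and 272 over 4-fold lower. The excess of rises depended on the scale. With the TMM factors used here the median gene had a log2 fold change of 0.19 and 65.1% of the calls were rises, with DESeq2's size factors in the same test the median was 0.01 and 53.2% were rises (1753 genes higher, 1540 lower), and scaled by the number of cells the median was -0.05 and 47.9% were rises (1568 higher, 1705 lower). Changes below are to be read against that shift, and counts of list members called against the 15.4% and 8.27% of all genes. Without replicate 2 of SPC-I 1329 genes were called higher, and without replicate 1 of SPG-B 697 were called lower. Of the genes called higher, 130 had no UMI in either SPG-B sum, and no fold is given for such genes.

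**Figure D1:**
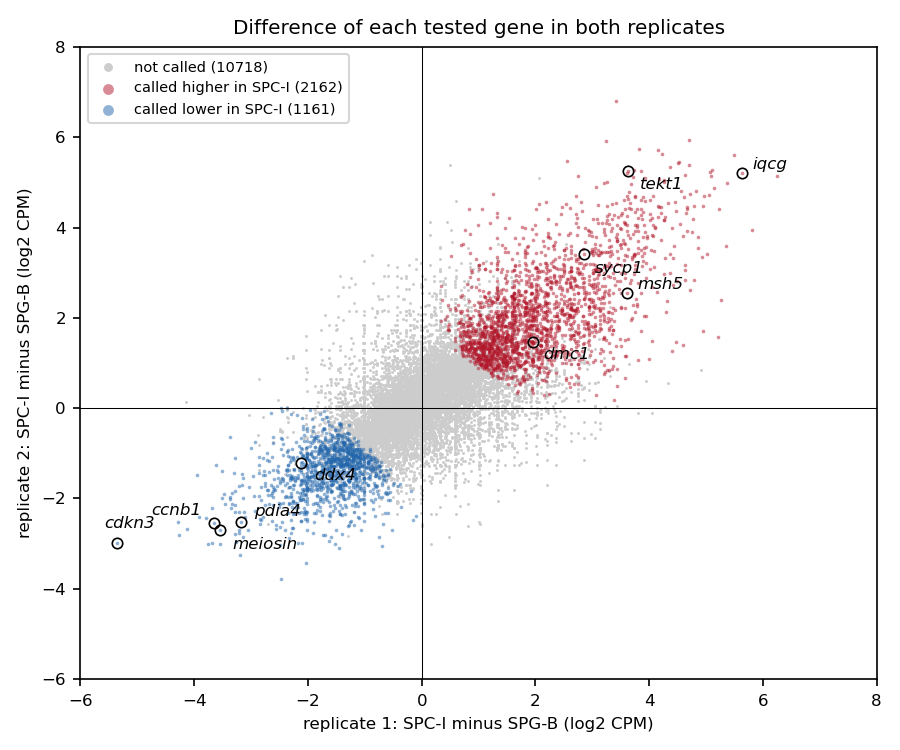
Difference between SPC-I and SPG-B (log2 CPM) of each of the 14041 tested genes in replicate 1 (horizontal axis) and replicate 2 (vertical axis), with genes called higher and lower in SPC-I in colour. The 2162 genes called higher and the 1161 called lower lie in the quadrants where both replicates have the same sign, and 10630 genes of all had the same direction in both replicates.

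Genes of the synaptonemal complex and the chromosome axis rose. In the list, 7 of 8 tested members were called higher and 0 lower, with a median of 1.26 on the log2 scale beside the 0.19 of all genes. sycp1, which encodes the transverse filament of the complex, was at 1671 and 2237 CPM in SPC-I, against 229 and 211 CPM in SPG-B, with no overlap of the stages (log2 fold change 3.15 ± 0.20 SE, edgeR adjusted p = 5.56e-10). sycp2 and sycp3 encode the lateral elements along each axis. sycp2 was at 986 and 919 CPM in SPC-I, against 385 and 401 CPM in SPG-B (log2 fold change 1.28 ± 0.18 SE, edgeR adjusted p = 2.39e-05), and sycp3, already abundant in SPG-B, at 4259 and 4297 CPM in SPC-I, against 1617 and 2394 CPM in SPG-B (log2 fold change 1.09 ± 0.20 SE, edgeR adjusted p = 3.98e-04). sycp3 rose by the least of the called members, and its call was lost in 15 of 27 other settings of the analysis, although its log2 fold change stayed positive in all of them (0.72 to 1.47). hormad1, an axis protein that marks unsynapsed chromosomes, was at 1603 and 1813 CPM in SPC-I, against 668 and 772 CPM in SPG-B (log2 fold change 1.25 ± 0.21 SE, edgeR adjusted p = 1.35e-04). syce1 (listed as si:ch211-199g17.9) and syce2 encode proteins of the central element. syce1 was at 651 and 716 CPM in SPC-I, against 102 and 114 CPM in SPG-B (log2 fold change 2.66 ± 0.20 SE, edgeR adjusted p = 6.50e-09). The log2 fold change of syce2 was 1.24 ± 0.17 SE. trip13, an ATPase that removes HORMA-domain proteins from synapsed axes, did not pass the fold limit (0.57).

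Cohesin holds sister chromatids together, and germ cells replace some of its subunits. Of the 5 meiotic subunits and partners tested, 1 was called higher and 0 lower, beside 15.4% and 8.27% of all genes, with a median of 0.47. The kleisin rad21l1 was at 694 and 603 CPM in SPC-I, against 359 and 262 CPM in SPG-B (log2 fold change 1.06 ± 0.19 SE, edgeR adjusted p = 2.76e-04), a call lost in 19 of 27 settings. smc1b, the meiotic SMC subunit, was at 1492 and 1271 CPM in SPC-I, against 755 and 794 CPM in SPG-B, apart in both replicates but under the fold limit (log2 fold change 0.83 ± 0.17 SE, edgeR adjusted p = 8.89e-04). Its mitotic paralogs smc1a and smc1al had log2 fold changes of -0.04 and 0.29. Another meiotic kleisin, rec8b, was at 403 and 361 CPM in SPC-I, against 284 and 269 CPM in SPG-B (log2 fold change 0.47 ± 0.18 SE, edgeR adjusted p = 0.0537), and the mitotic kleisin rad21a had a log2 fold change of -0.76. The remaining meiotic kleisin, rec8a, went the other way, with the lowest log2 fold change of its list (-1.37). It lay lower in SPC-I without overlap of the stages but was not called. stag3 encodes the meiotic STAG subunit. It was at 23.8 and 23.1 CPM in SPC-I, against 19.4 and 27.5 CPM in SPG-B, so the stages overlapped (log2 fold change 0.01 ± 0.32 SE, edgeR adjusted p = 0.985). Of the 12 mitotic cohesin genes, 0 were called by edgeR or DESeq2 (median -0.03). At an adjusted p under 0.05 without the fold limit, 0 were higher and 1 lower, beside 31.6% of all genes in either direction. The lower one was rad21a (edgeR adjusted p = 0.00418). At an unadjusted p under 0.05 in edgeR, for which the share of all genes was not counted, 2 were higher and 1 lower. By DESeq2, 0 of the 5 meiotic cohesin genes were called.

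**Figure D2:**
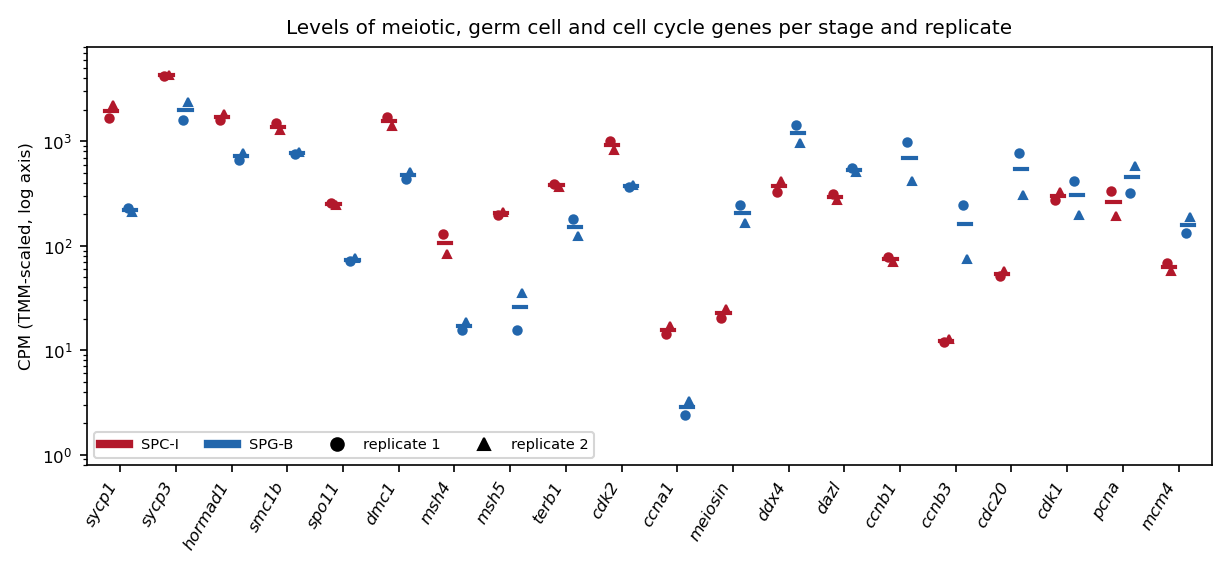
Levels (CPM with TMM scaling, log axis) of 20 meiotic, germ cell and cell cycle genes, with SPC-I left of SPG-B for each gene and symbols for replicates 1 and 2 and bars for their mean. Meiotic genes such as sycp1, dmc1 and msh5 lie higher in SPC-I in both replicates, ccnb1, ccnb3, cdc20, meiosin and ddx4 lie lower, and cdk1 overlaps between the stages.

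Programmed breaks are made by Spo11 with accessory proteins. spo11 itself was at 259 and 243 CPM in SPC-I, against 71.4 and 76.1 CPM in SPG-B (log2 fold change 1.77 ± 0.17 SE, edgeR adjusted p = 1.76e-07). Of 5 tested genes of break formation, 2 were called higher and 0 lower (median 0.90), beside 15.4% and 8.27% of all genes. With spo11 the other called gene was ankrd31 (log2 fold change 1.17 ± 0.25 SE), a call lost in 9 of 27 settings. DESeq2 called 1 of the 5 higher. mei4, a partner of Spo11 on the axis, was at 183 and 188 CPM in SPC-I, against 111 and 86.6 CPM in SPG-B and stayed under the limit (0.90). iho1, which anchors that machinery to Hormad1 and is counted with the axis genes, had a log2 fold change of 1.61 ± 0.25 SE.

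Strand exchange joins a broken end to the homologue. Of 25 tested genes of this step, 10 were called higher and 0 lower, with a median of 0.77. The meiosis-specific recombinase dmc1 was at 1711 and 1413 CPM in SPC-I, against 439.9 and 511 CPM in SPG-B (log2 fold change 1.72 ± 0.20 SE, edgeR adjusted p = 1.73e-06). The stages did not overlap. psmc3ip and mnd1, which form the Hop2-Mnd1 complex that assists Dmc1, had log2 fold changes of 0.59 and 0.82 and were not called. meiob, which binds single-stranded DNA together with Spata22, was at 209.8 and 120.0 CPM in SPC-I, against 53.9 and 62.4 CPM in SPG-B, with a wide spread in SPC-I (log2 fold change 1.50 ± 0.31 SE, edgeR adjusted p = 0.00122). spata22 (1.53) and mcmdc2 (2.29), an MCM-domain protein needed for homologue repair in mouse, were also called higher.

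The crossover list had the highest median of the recombination lists. Of its 15 tested members, 10 were called higher and 0 lower, with a median of 1.51, and 14 had SPC-I above SPG-B without overlap, where 66.4% of all genes did not overlap in either direction. msh4 and msh5 encode the MutS heterodimer that stabilises joint molecules. msh5 was at 199 and 210.2 CPM in SPC-I, against 15.7 and 35.6 CPM in SPG-B (log2 fold change 3.03 ± 0.28 SE, edgeR adjusted p = 7.70e-08), and msh4 at 131 and 84.1 CPM in SPC-I, against 15.7 and 18.6 CPM in SPG-B (log2 fold change 2.65 ± 0.45 SE, edgeR adjusted p = 6.07e-04). Their paralog msh6, of mismatch repair, was called higher too (1.69). exo1, the exonuclease that also takes part in crossover resolution, was at 67.9 and 69.9 CPM in SPC-I, against 6.05 and 14.6 CPM in SPG-B (log2 fold change 2.80 ± 0.33 SE, edgeR adjusted p = 2.19e-06). ccnb1ip1, the ubiquitin ligase known as HEI10, was at 235 and 177 CPM in SPC-I, against 43.6 and 50.2 CPM in SPG-B (log2 fold change 2.14 ± 0.26 SE, edgeR adjusted p = 3.50e-06). hfm1, a meiotic DNA helicase, had a log2 fold change of 1.58 ± 0.31 SE and kept its call in all 27 settings. mlh3, which acts at crossover sites, missed the fold limit at 0.97 ± 0.32 SE, as did its mismatch repair paralog pms2 (0.58).

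Chromosome ends are tied to the nuclear envelope by Terb1, Terb2 and Majin, which connect to the SUN and KASH proteins that span it. Of 9 tested genes of this attachment, 6 were called higher and 0 lower (median 1.17). terb1 was at 393 and 369 CPM in SPC-I, against 180.3 and 124 CPM in SPG-B (log2 fold change 1.32 ± 0.19 SE, edgeR adjusted p = 2.82e-05). terb2 (1.51), the telomere protein pot1 (1.35) and sun1 (1.23) rose as well. majin passed only narrowly (log2 fold change 1.17 ± 0.43 SE, edgeR adjusted p = 0.0417), and the calls of majin and sun1 were lost in 18 and 16 of 27 settings. In the wider nuclear envelope list, 3 of 43 members were called higher and 5 lower (median -0.19), beside 15.4% and 8.27% of all genes. The called rises there were sun1 and the KASH proteins syne1b (1.65) and syne2a (1.61), the last of these lost in 12 of 27 settings. lbr, the lamin B receptor, was lower, at 90.8 and 109 CPM in SPC-I, against 375 and 329 CPM in SPG-B (log2 fold change -1.81 ± 0.24 SE, edgeR adjusted p = 1.84e-05), together with the pore component nup210 (-1.97), the importin kpna2 (-1.48) and banf1 (-1.28), a chromatin-binding protein of the envelope.

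In the lists of synapsis, meiotic cohesin, breaks, strand exchange, crossover and telomere attachment, 0 members were lower in SPC-I at an unadjusted p under 0.05 in edgeR, and 0 were called lower by DESeq2. Of 21 tested genes of mismatch and break repair, 5 were called higher and 1 lower, beside 15.4% and 8.27% of all genes, with a median of 0.34. The rises included the checkpoint kinase atr (1.22), mdc1 (1.56), which binds phosphorylated H2AX at breaks, and fanci (1.72) of the Fanconi anaemia pathway. The fall was chek2, a checkpoint kinase that answers to double-strand breaks (log2 fold change -1.15 ± 0.33 SE), a call lost in 8 of 27 settings.

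Among regulators of meiotic entry, meiosin fell. The gene encodes a transcription factor that works with Stra8 in mouse to start meiosis. It was at 20.4 and 24.8 CPM in SPC-I, against 246 and 164 CPM in SPG-B (log2 fold change -3.17 ± 0.64 SE, edgeR adjusted p = 0.00568). SPG-B was its highest stage of all 7, since it lay at 11.3 and 59.9 CPM in SPG-Aun, 32.9 and 48.4 CPM in differentiated type A spermatogonia (SPG-Ad), 2.87 and 3.86 CPM in secondary spermatocytes (SPC-II) and 1.77 to 21.0 CPM in spermatids. ythdc2, an RNA helicase required for meiotic entry in mouse, had a log2 fold change of 0.54 and was not called. dazl, an RNA-binding protein of germ cells, was at 310.3 and 276 CPM in SPC-I, against 554 and 513 CPM in SPG-B, apart in both replicates but short of the fold limit (log2 fold change -0.86 ± 0.18 SE, edgeR adjusted p = 0.00103), a limit that it passed in 14 of the 27 other settings. mybl1, the transcription factor A-MYB of prophase spermatocytes in mouse, was at 127 and 129 CPM in SPC-I, against 67.2 and 60.7 CPM in SPG-B and missed the limit at a log2 fold change of 0.99, with a call in 8 of 27 other settings.

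The list of meiotic entry and germ cell RNA regulators as a whole was split, with 2 of 33 members called higher and 2 lower, or 0 and 4 by DESeq2 (median 0.16). Both edgeR counts stood beside 15.4% and 8.27% of all genes. The germ cell RNA helicase ddx4 (Vasa) was at 328 and 415 CPM in SPC-I, against 1427 and 962 CPM in SPG-B (log2 fold change -1.68 ± 0.26 SE, edgeR adjusted p = 7.70e-05). A Tudor-domain protein, tdrd15, was lower (-2.04), and another, tdrd3, higher (1.02), as was dnd1 (1.62), which protects germ cell mRNAs from microRNAs. The calls of tdrd3 and dnd1 were lost in 20 and 21 of 27 settings. The piRNA-binding proteins piwil1 and piwil2 had log2 fold changes of -0.14 and 0.49 and were not called. Of 22 tested genes of spermatogonial and germline identity, 2 were called higher and 1 lower (median 0.14), beside the same shares of all genes. The receptor gene kitb was at 5.41 and 5.20 CPM in SPC-I, against 0.605 and 0 CPM in SPG-B, too few UMIs in SPG-B for a fold. The zinc finger gene sall4 was at 12.3 and 12.9 CPM in SPC-I, against 3.63 and 5.67 CPM in SPG-B (log2 fold change 1.47), a call lost in 15 of 27 settings, and nanog, the fall of the list, at 10.2 and 11.4 CPM in SPC-I, against 22.4 and 23.5 CPM in SPG-B (-1.07). eno3 and e2f5, which the study used within type A spermatogonia to mark the undifferentiated ones, were not called (-0.38 and 0.11). Within type A, eno3, e2f5 and ripply2, used likewise, were each higher in SPG-Aun than in SPG-Ad in both replicates. All were higher still in SPG-B. eno3 was at 491 and 386 CPM in SPG-B and 135 and 172 CPM in SPG-Aun. e2f5 was at 454 and 388 CPM in SPG-B and 119 and 129.5 CPM in SPG-Aun. ripply2 was at 156 and 266 CPM in SPG-B and 94.6 and 88.2 CPM in SPG-Aun.

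Among the cyclins, ccna1 rose and ccnb1 and ccnb3 fell. ccna1, the cyclin A of male meiosis in mouse, was low but higher in SPC-I, at 14.4 and 17.1 CPM in SPC-I, against 2.42 and 3.24 CPM in SPG-B (log2 fold change 2.50 ± 0.43 SE, edgeR adjusted p = 1.99e-04), while ccna2, the cyclin A of mitotic cells, had a log2 fold change of -0.71 and was not called. cdk2, their partner kinase, was at 1000.2 and 829.9 CPM in SPC-I, against 367 and 381 CPM in SPG-B (log2 fold change 1.29 ± 0.16 SE, edgeR adjusted p = 4.19e-06). The B-type cyclins drive the entry into division. ccnb1 was at 77.9 and 70.6 CPM in SPC-I, against 983 and 414 CPM in SPG-B (log2 fold change -3.24 ± 0.32 SE, edgeR adjusted p = 4.32e-06) and ccnb3 at 12.03 and 12.7 CPM in SPC-I, against 245 and 75.3 CPM in SPG-B (log2 fold change -3.70 ± 0.54 SE, edgeR adjusted p = 7.70e-04). In both genes the SPG-B replicates lay far apart, with replicate 1 the higher, and both still lay above SPC-I. ccnb2 was not called (-0.44), nor was cdk1, the kinase that B-type cyclins activate, whose replicates overlapped at 272 and 329.5 CPM in SPC-I, against 415 and 197 CPM in SPG-B (-0.03).

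Counted over the list of cyclins and kinases, 5 of 47 members were called higher and 7 lower, beside 15.4% and 8.27% of all genes. DESeq2 called 3 and 9, and the median was -0.03. The rises included foxm1, a transcription factor of the G2/M programme, at 86.6 and 100.1 CPM in SPC-I, against 27.2 and 10.5 CPM in SPG-B (log2 fold change 2.25 ± 0.28 SE, edgeR adjusted p = 4.56e-06), and lin9 (1.07), a subunit of the complex that works with it, whose call was lost in 18 of 27 settings. The falls included cdkn1a (-1.47), the p21 inhibitor, and e2f4 (-1.46), a repressor E2F, with the call of cdkn1a lost in 9 settings. Of 51 spindle and checkpoint genes, 1 was called higher, the kinetochore gene spc24 (1.24), and 7 lower (median -0.03), beside the same shares of all genes. spc24 lost its call in 10 of 27 settings. cdc20, the activator of the anaphase-promoting complex, was at 50.8 and 57.0 CPM in SPC-I, against 771 and 306 CPM in SPG-B (log2 fold change -3.32 ± 0.33 SE, edgeR adjusted p = 3.57e-06). The kinesin kif11 (-1.67), nusap1 (-1.93), which bundles spindle microtubules, and the phosphatase cdc25b (-1.26) were lower too, while mki67 and top2a (-0.21) were not called. The median of the spindle and checkpoint list ranged from -0.67 to 0.53 over 29 settings.

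DNA replication genes did not move one way. Of 50 tested, 3 were called higher and 5 lower, beside 15.4% and 8.27% of all genes. The list's median was 0.16 in the fit, 0.56 in replicate 1 and -0.49 in replicate 2. pcna, the sliding clamp of replication, was at 331 and 193 CPM in SPC-I, against 321 and 583 CPM in SPG-B, with overlap between the stages (log2 fold change -0.79 ± 0.35 SE, edgeR adjusted p = 0.107). The study also used pcna, with sycp3, to name its spermatocyte clusters, so its level is not independent of the labels. mcm4, a subunit of the replicative helicase, was at 68.2 and 57.0 CPM in SPC-I, against 131 and 187 CPM in SPG-B (log2 fold change -1.34 ± 0.21 SE, edgeR adjusted p = 5.96e-05). The origin genes orc6 (-1.76), orc2 (-1.38) and orc1 (-1.26) were also lower. The rises were cdc45, another part of the active helicase, at 189.7 and 170.3 CPM in SPC-I, against 42.4 and 72.1 CPM in SPG-B (log2 fold change 1.67 ± 0.24 SE, edgeR adjusted p = 2.17e-05), the clamp loader subunit rfc5 (1.43) and the origin gene orc4 (1.08), whose call was lost in 15 of 27 settings. The calls of orc2 and orc1 were lost in 11 and 10. Those of mcm4 and orc6 were lost in 2 and 1, each time with a single study cluster in place of a stage. The log2 fold change of mcm4 ranged from -3.165 to -0.43 over the 27 settings.

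**Figure D3:**
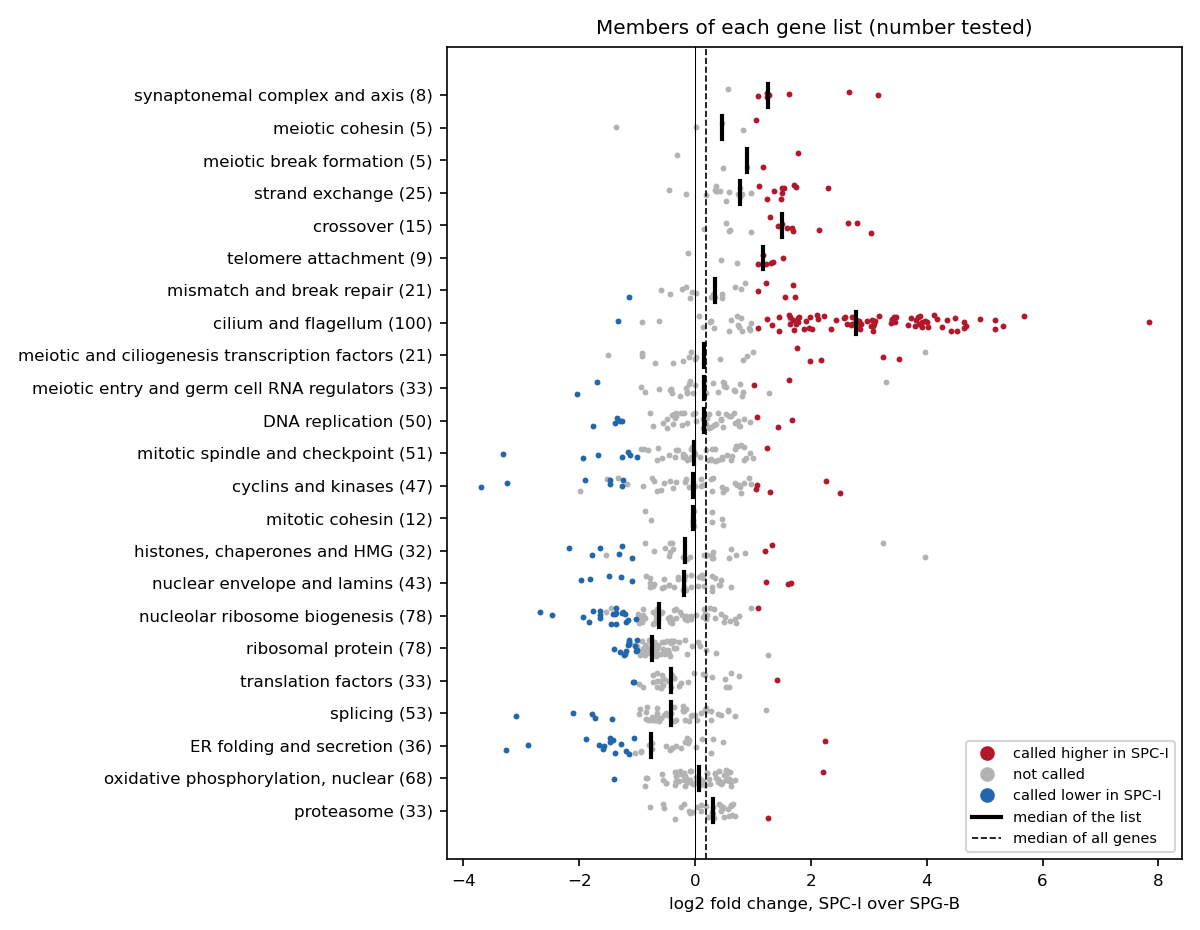
Log2 fold change (SPC-I over SPG-B) of each tested member of the gene lists, 1 row per list with the number tested, with a mark for the list's median and a line at the median of all genes (0.19). The cilium, crossover and synaptonemal complex lists lie to the right with medians of 2.78, 1.51 and 1.26, and the ER, ribosomal protein and nucleolar lists to the left with medians of -0.77, -0.74 and -0.63.

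Cilium and flagellum genes had the most called members of all lists. Of 100 tested, 80 were called higher and 1 lower (spag7, -1.33), with a median of 2.78, and the median ranged from 1.58 to 3.39 over 29 settings. Summed, the list was at 9161 and 10492 CPM in SPC-I, against 2111 and 1762 CPM in SPG-B, and at 24489 and 24374 CPM in SPC-II. The 20 largest rises among genes with a usual symbol and at least 50 CPM had log2 fold changes of 4.42 to 5.68, with levels of 53.2 to 305 CPM in SPC-I and 0.81 to 13.8 CPM in SPG-B. They included several proteins of the axoneme, the microtubule core of the flagellum. iqcg, a subunit of the dynein regulatory complex, was at 178 and 231 CPM in SPC-I, against 3.03 and 5.67 CPM in SPG-B (log2 fold change 5.60 ± 0.28 SE, edgeR adjusted p = 1.45e-10), and cfap91, which sits in the radial spokes, at 60.7 and 84.1 CPM in SPC-I, against 1.21 and 1.62 CPM in SPG-B (log2 fold change 5.68 ± 0.38 SE, edgeR adjusted p = 1.30e-09). drc1 (5.40) of the same regulatory complex, odad3 (5.16) of the outer dynein arm docking complex, cfap52 (4.64), cfap57 (5.17), cfap92 (4.68) and the adenylate kinase ak7a (4.77) were in the same group. The remaining 12 were iqub, spmap2, tex36, ccdc175, erich3, fbxo36a, ppp1r42, spata45, stpg1, spata17, ccdc169 and eno4, an enolase of the sperm flagellum in mouse.

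Of the 7 spermatid markers, 5 were called higher and 0 lower by edgeR, beside 15.4% and 8.27% of all genes. DESeq2 called 5 higher and 1 lower, edrf1. edrf1 was at 15.6 and 25.3 CPM in SPC-I, against 45.4 and 46.2 CPM in SPG-B and missed the threshold (log2 fold change -1.13 ± 0.44 SE, edgeR adjusted p = 0.0754). tekt1, which encodes a tektin filament inside axonemal microtubules, was at 238 and 333 CPM in SPC-I, against 18.8 and 8.10 CPM in SPG-B (log2 fold change 4.35 ± 0.31 SE, edgeR adjusted p = 5.41e-09). ropn1l (3.36), spaca9 (3.08) and enkur (3.01) were among those called higher. Whether RNA of spermatids took part in these levels was not tested.

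Of 21 tested transcription factors of meiosis and ciliogenesis, 5 were called higher and 0 lower, beside 15.4% and 8.27% of all genes, with a median of 0.15. DESeq2 called 5 higher and 2 lower. At an edgeR adjusted p under 0.05 alone, 7 were higher and 2 lower, beside 31.6% of all genes in either direction. The lowest log2 fold change was -1.50. cremb, a homologue of the CREM activator of spermatid genes in mouse, was at 509.9 and 657 CPM in SPC-I, against 76.2 and 45.3 CPM in SPG-B (log2 fold change 3.25 ± 0.24 SE, edgeR adjusted p = 5.16e-09). foxj1b and rfx2 belong to the families that switch on cilium genes. foxj1b was at 25.3 and 31.0 CPM in SPC-I, against 2.42 and 2.43 CPM in SPG-B (log2 fold change 3.53 ± 0.36 SE, edgeR adjusted p = 3.36e-07), and rfx2 at 95.3 and 82.3 CPM in SPC-I, against 22.4 and 16.2 CPM in SPG-B (log2 fold change 2.18 ± 0.25 SE, edgeR adjusted p = 1.78e-06). hsf5, a heat shock factor of spermatocytes, was at 565 and 715 CPM in SPC-I, against 183 and 139 CPM in SPG-B (log2 fold change 1.98 ± 0.19 SE, edgeR adjusted p = 1.79e-07). The list median lay close to that of all genes.

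**Figure D4:**
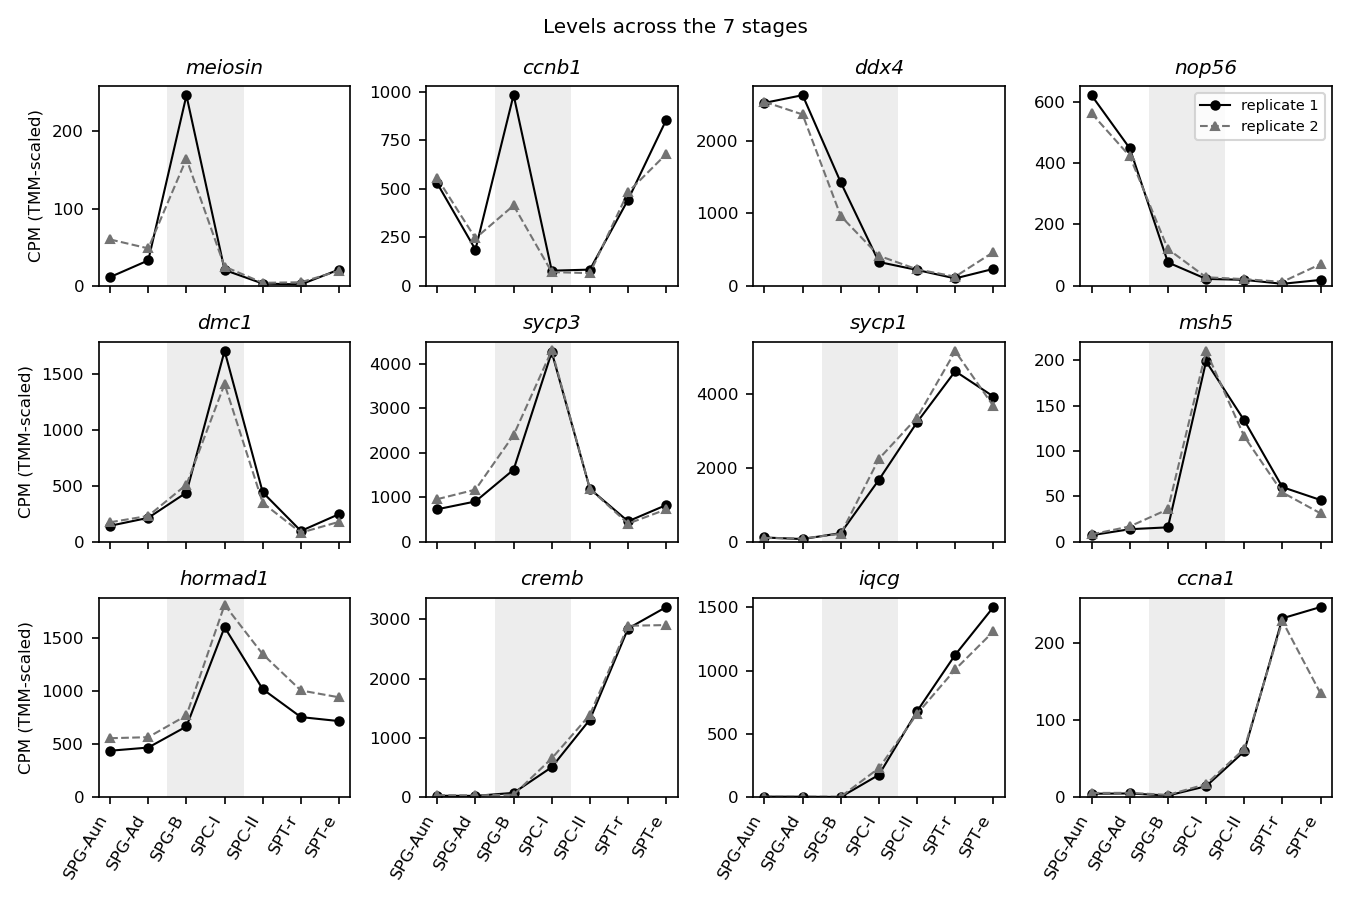
Levels (CPM with TMM scaling, linear axes from 0) of 12 genes over the 7 stages in developmental order, with a line for each replicate. meiosin is highest in SPG-B, dmc1, sycp3, msh5 and hormad1 are highest in SPC-I, sycp1, cremb, iqcg and ccna1 go on to higher levels after SPC-I, and nop56 and ddx4 are highest in type A spermatogonia.

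Along the 7 stages the genes of this step followed different courses. dmc1 was at 213 and 231 CPM in SPG-Ad, 439.9 and 511 CPM in SPG-B, 1711 and 1413 CPM in SPC-I and 442 and 347 CPM in SPC-II, so it peaked at SPC-I. msh5 had a like peak, with 199 and 210.2 CPM in SPC-I and 134 and 116 CPM in SPC-II. sycp1 instead reached 3227 and 3353 CPM in SPC-II and 4606 and 5148 CPM in round spermatids (SPT-r). iqcg reached 680.4 and 659.6 CPM in SPC-II and 1126 and 1010.4 CPM in SPT-r. ccnb1 stayed as low in SPC-II, at 83.3 and 65.3 CPM, and was at 443 and 483 CPM in SPT-r. For size, the same fit called 429 genes higher (3.06%) and 1638 lower (11.7%) in SPG-B over SPG-Ad, and 1581 higher (11.3%) and 1640 lower (11.7%) in SPC-II over SPC-I. These steps share sums with the step into meiosis, and the differences between their counts were not tested.

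Many genes of growth and protein synthesis were lower in SPC-I. Of 78 ribosomal protein genes, 0 were called higher and 14 lower, beside 15.4% and 8.27% of all genes, and DESeq2 called 33 lower. At an adjusted p under 0.05 without the fold limit 53 were lower, beside 31.6% of all genes in either direction. A negative log2 fold change was found in 73 of the 78 (median -0.74, -1.33 to -0.61 over 29 settings). Their sum was 123285 and 124558 CPM in SPC-I, against 210175 and 187966 CPM in SPG-B. rps3a was at 819.9 and 804 CPM in SPC-I, against 2327 and 1959.6 CPM in SPG-B (log2 fold change -1.40 ± 0.23 SE, edgeR adjusted p = 1.09e-04). rpl8 (-1.23) and rpl17 were called as well, while rplp0 was near 0 (-0.05). Of 78 nucleolar genes of ribosome biogenesis, 1 was called higher (tsr3, 1.09, a call lost in 22 of 27 settings) and 20 lower, or 0 and 26 by DESeq2 (median -0.63). nop56, a core protein of box C/D snoRNPs, was at 22.5 and 27.8 CPM in SPC-I, against 76.2 and 119.8 CPM in SPG-B (log2 fold change -1.94 ± 0.36 SE, edgeR adjusted p = 0.00124), and nop10, of the H/ACA snoRNPs, at 13.2 and 25.1 CPM in SPC-I, against 119 and 136 CPM in SPG-B (log2 fold change -2.69 ± 0.24 SE, edgeR adjusted p = 7.19e-08). tcof1 (-2.47) and wdr3 (-1.84) fell too. npm1a, the nucleolar chaperone nucleophosmin, had a log2 fold change of -1.55 ± 0.61 SE and missed the p threshold (edgeR adjusted p = 0.0895). nop56 was higher still in SPG-Aun, at 621 and 562 CPM in SPG-Aun.

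Of 33 translation factors, 1 was called higher and 2 lower, beside 15.4% and 8.27% of all genes, or 4 lower by DESeq2 (median -0.41). The poly(A)-binding protein gene pabpc1b rose, at 976 and 1261 CPM in SPC-I, against 423 and 417 CPM in SPG-B (log2 fold change 1.41 ± 0.18 SE, edgeR adjusted p = 7.99e-06), while the elongation factor eef2b (-1.07) and the initiation factor eif4b (-1.05) fell. Of 53 splicing genes, 0 were called higher and 5 lower, beside 15.4% and 8.27% of all genes, so the falls lay near that share. At an adjusted p under 0.05 alone 3 were higher and 22 lower, beside 31.6% of all genes in either direction. DESeq2 called 10 lower (median -0.41). hnrnpul1, a nuclear RNA-binding protein, was at 11.4 and 21.0 CPM in SPC-I, against 166 and 116 CPM in SPG-B (log2 fold change -3.09 ± 0.29 SE, edgeR adjusted p = 1.65e-07), and hnrnpa0a (-2.11), hnrnpa0b (-1.78) and snrpa (-1.43) of the U1 particle fell as well.

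The endoplasmic reticulum list had a median of -0.77, with 1 of 36 members called higher (dnajc3a, 2.24) and 14 lower. pdia4, a disulfide isomerase of the ER, was at 22.5 and 27.2 CPM in SPC-I, against 208 and 159.5 CPM in SPG-B (log2 fold change -2.88 ± 0.34 SE, edgeR adjusted p = 1.08e-05). p4hb (-3.27), of the same enzyme family, and the chaperone canx (-1.60) fell too. tmem97, the sigma-2 receptor of the ER membrane, was at 58.3 and 46.6 CPM in SPC-I, against 174 and 154 CPM in SPG-B (log2 fold change -1.65 ± 0.29 SE, edgeR adjusted p = 2.50e-04). Heat shock and DnaJ genes were mixed, with 2 of 26 called higher, dnajb6b (2.50) and dnajb6a, and 2 lower, the mitochondrial chaperonins hspd1 (-1.99) and hspe1 (-1.71) (median -0.29). Of all genes, 15.4% were called higher and 8.27% lower. dnajb6a lost its call in 11 of 27 settings. hsp70l, which stress induces, was at 228 and 914 CPM in SPC-I, against 1070.4 and 2166 CPM in SPG-B, far apart between replicates, and was not called (log2 fold change -1.50 ± 1.21 SE, edgeR adjusted p = 0.397).

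Few genes of energy and turnover were called, where 15.4% of all genes were called higher and 8.27% lower. Of 68 nuclear genes of oxidative phosphorylation 1 was called higher, ndufa4b (2.21), and 1 lower, atp5f1c (-1.41), or 1 and 4 by DESeq2, with a median of 0.07. Without the fold limit, 16 of them were higher and 8 lower at an adjusted p under 0.05, beside 31.6% of all genes in either direction. Of the 13 mitochondrially encoded genes, 0 were called by edgeR or DESeq2. At an adjusted p under 0.05 alone 2 were lower, beside 31.6% of all genes in either direction. At an unadjusted p under 0.05, for which the share of all genes was not counted, 9 were lower (median of the list -0.39). That median was between -0.77 and -0.26 over 29 settings. Summed, they were at 17076 and 16147 CPM in SPC-I, against 21234 and 20629 CPM in SPG-B. The median share of mitochondrial UMIs per cell was 1.85% and 1.70% in SPC-I and 2.19% and 2.44% in SPG-B. Of 12 glycolysis genes 2 were called higher, eno4 and hk1 (1.54), and of 33 proteasome genes 1, the activator subunit psme1 (1.26), with 0 lower in either (medians -0.08 and 0.30). At an adjusted p under 0.05 alone, 10 proteasome genes were higher and 2 lower, beside the same 31.6% of all genes. Of 30 genes of SUMO and ubiquitin on the meiotic axis, 2 were called higher, the SUMO ligase pias4b (1.67) and ube2b (1.16, a call lost in 16 of 27 settings), and 3 lower, among them the modifier sumo3b, at 33.1 and 40.7 CPM in SPC-I, against 159 and 206 CPM in SPG-B (log2 fold change -2.29 ± 0.51 SE, edgeR adjusted p = 0.00897). DESeq2 called 1 higher and 5 lower in that list, whose median was 0.17.

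Of 32 histone, chaperone and HMG genes, 2 were called higher and 6 lower, or 1 and 8 by DESeq2, beside 15.4% higher and 8.27% lower of all genes (median -0.18). The nucleoplasmin npm2b was at 22.5 and 22.5 CPM in SPC-I, against 8.47 and 11.3 CPM in SPG-B (edgeR adjusted p = 0.0412), a call lost in 19 of 27 settings. h2ax, the histone variant that is phosphorylated at breaks, was at 47.5 and 34.2 CPM in SPC-I, against 117 and 138 CPM in SPG-B (log2 fold change -1.65 ± 0.27 SE, edgeR adjusted p = 1.22e-04). The nucleosome-binding proteins hmgn1a (-2.18), hmgn3 (-1.31) and hmgn7 (-3.05) fell, the last of these outside the list. hmgb1a and hmgb1b were not called (0.71 and 0.29). Of 15 genes of DNA methylation and its readers, 1 was called higher, mbd2 (1.24), and 1 lower (median -0.37), beside the same shares of all genes. The methyltransferases dnmt1 (0.24) and dnmt3bb.2 (-0.39) were not called.

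The 20 largest falls, by the same rule as the rises, had log2 fold changes of -4.06 to -2.21, with levels of 1.80 to 77.9 CPM in SPC-I and 53.2 to 983 CPM in SPG-B. They held cell cycle genes (ccnb1, ccnb3, cdc20 and cdkn3, a phosphatase that acts on Cdk2), chromatin genes (hmgn7, hp1bp3, cdca7b), meiosin, and genes of RNA and protein handling (hnrnpul1, chtopb, cnbpb, nop10, pdia4, sumo3b). The others were the DNA repair endonuclease apex1 (10.5 and 12.4 CPM against 129 and 104 CPM, SPC-I before SPG-B, log2 fold change -3.33 ± 0.23 SE, edgeR adjusted p = 1.41e-09), tomm20a of the mitochondrial import pore, txndc17, fabp7, septin2 and esd. None of them belonged to the cilium list, which held 4 of the 20 largest rises.

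In replicate 1 each stage was made of a pair of the study's clusters. SPC-I held cluster 4 (158 cells) and cluster 0 (280 cells), and SPG-B held cluster 10 (111 cells) and cluster 12 (67 cells). In replicate 2 cluster labels were given by a separate vote, to 331, 522, 86 and 56 cells in the same order, so these cells are not exactly those of the 834 and 151 with the stage labels. Levels in the clusters are a description, since the clusters were drawn on the same genes. Cluster 4 had higher levels of sycp1, iqcg and the cilium list, which rose further after SPC-I. sycp1 was at 3003 and 3256 CPM in cluster 4 and 999 and 1424 CPM in cluster 0, against 216 and 214 CPM in cluster 10 and 242 and 156 CPM in cluster 12. iqcg was at 468 and 439.6 CPM in cluster 4 and 32.1 and 69.5 CPM in cluster 0, against at most 6.36 CPM in the SPG-B clusters. The cilium list summed to 16962 and 16517 CPM in cluster 4 and 5228 and 5747 CPM in cluster 0, against 2211 and 1723 CPM in cluster 10 and 2013 and 1567 CPM in cluster 12. Even the lower of the SPC-I clusters thus lay above both SPG-B clusters in both replicates.

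Cluster 0 had higher levels of meiob, stag3 and pcna, but the meiotic lists went both ways. In both replicates the summed lists of meiotic cohesin, strand exchange and crossover were higher in cluster 0. Those of break formation, telomere attachment and the synaptonemal complex and axis were higher in cluster 4. meiob was at 255 and 157 CPM in cluster 0, against 119 and 73.1 CPM in cluster 4, and stag3 at 31.2 and 37.5 CPM in cluster 0, against 8.97 and 6.22 CPM in cluster 4. pcna was at 468 and 300.5 CPM in cluster 0 and 58.3 and 62.2 CPM in cluster 4, against 542 and 651 CPM in cluster 10 and 104 and 423 CPM in cluster 12. Replication genes were thus higher in cluster 0 than in cluster 4, and the replication list as a whole summed to 10209.9 and 7864 CPM in cluster 0 and 3984 and 3499 CPM in cluster 4. dmc1 differed little between the SPC-I clusters, with 1782 and 1578 CPM in cluster 0 and 1572 and 1180.1 CPM in cluster 4.

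The SPG-B clusters differed in the cell cycle. The spindle and checkpoint list summed to 13960 and 7775 CPM in cluster 12 and 5065 and 4588 CPM in cluster 10. In SPC-I that list summed to 5866 and 6014 CPM in cluster 0 and 7123 and 6804 CPM in cluster 4. With cluster 10 as the only SPG-B cells its median log2 fold change was 0.53, and the call of nusap1 was lost. cdc20 was at 1116 and 541 CPM in cluster 12 and 418 and 178 CPM in cluster 10, and cdk1 at 764 and 371 CPM in cluster 12 and 58.7 and 134 CPM in cluster 10. In SPC-I, cdk1 was at 300.5 and 398 CPM in cluster 4 and 258 and 273 CPM in cluster 0, above cluster 10 in both replicates. ccnb1 was at 1219 and 711 CPM in cluster 12 and 742 and 254 CPM in cluster 10, above SPC-I in both. meiosin did not follow this split, with 245 and 215 CPM in cluster 12 and 247 and 151 CPM in cluster 10. The choice of cluster moved the counts, since with cluster 0 as the only SPC-I cells 1180 genes were called higher, and with cluster 4 as the only SPC-I cells 1945 were called lower.

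**Figure D5:**
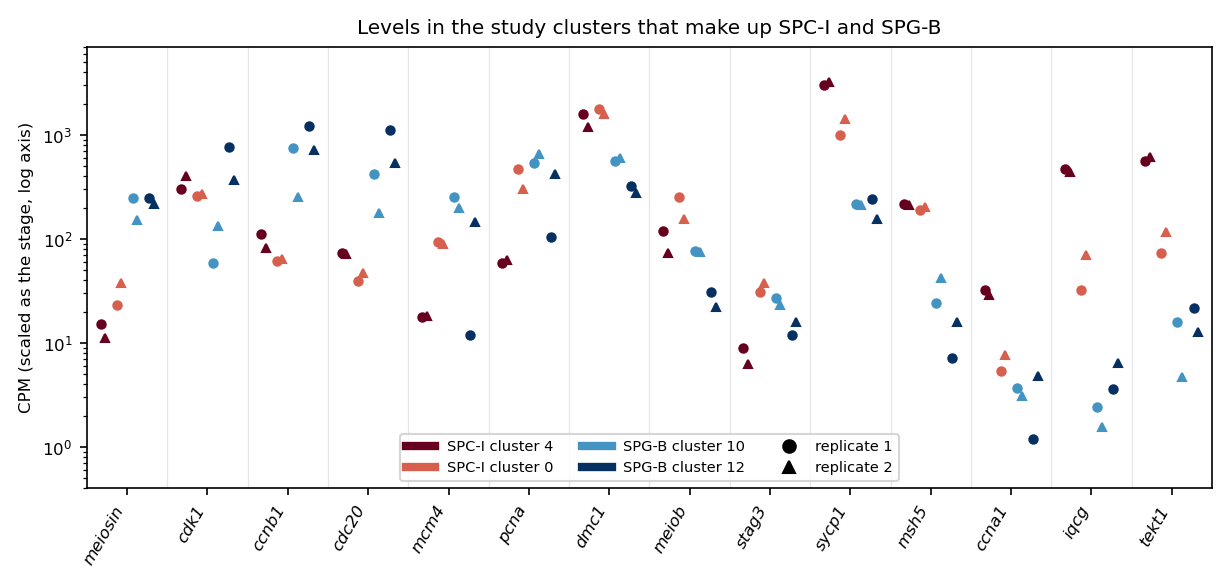
Levels (CPM on the scale of the stage, log axis) of 14 genes in the 4 study clusters that make up the stages in replicate 1 and were voted separately in replicate 2, with clusters 4 and 0 of SPC-I left of clusters 10 and 12 of SPG-B and symbols for the replicates. sycp1, ccna1, iqcg and tekt1 are highest in cluster 4, meiob is highest in cluster 0, and cdc20 is highest in cluster 12.

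Shares of cells with at least 1 UMI were compared after each cell was thinned to 2000 UMIs, which left out 23 and 64 SPC-I cells and 5 and 10 SPG-B cells below that depth. SPG-Aun cells, thinned likewise, served as a cell type well before meiosis, and elongated spermatids (SPT-e), of which 105 and 200 cells were deep enough, as cells long after it. Cells that were kept had median depths before thinning of 6441 and 5998.5 UMIs in SPC-I, 7533 and 7280 in SPG-B and 10382 and 11646 in SPG-Aun. sycp1 was seen in 368 of 415 cells (88.7%, 95% interval 85.2 to 91.6%) and 711 of 770 cells (92.3%, 95% interval 90.2 to 94.1%) of SPC-I, against 55 of 173 cells (31.8%, 95% interval 24.9 to 39.3%) and 47 of 141 cells (33.3%, 95% interval 25.6 to 41.8%) of SPG-B. In SPG-Aun the share was 19.7% and 16.4%. The intervals are exact (Clopper-Pearson) and cover counting error only. SPG-B thus lay above SPG-Aun and far below SPC-I, and unthinned the shares were 98.2% and 95.8% in SPC-I, 69.7% and 58.3% in SPG-B and 51.3% and 47.3% in SPG-Aun.

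dmc1 was seen in 97.1% and 91.0% of thinned SPC-I cells, 56.6% and 56.0% of SPG-B cells and 23.3% and 26.5% of SPG-Aun cells, and unthinned in 96.6% and 94.4% of SPC-I, 89.9% and 84.8% of SPG-B and 74.0% and 73.3% of SPG-Aun cells. meiob was seen in 37.3% and 25.2% of SPC-I cells, 8.67% and 12.1% of SPG-B cells and 2.30% and 2.41% of SPG-Aun cells, and unthinned in 71.0% and 50.6% of SPC-I, 32.6% and 35.8% of SPG-B and 12.7% and 11.3% of SPG-Aun cells. Both genes were seen in a larger share of SPG-B than of SPG-Aun cells in both replicates. In SPT-e cells dmc1 was seen in 11 of 105 and 26 of 200 thinned cells, and the thinned share was 5.71% and 1.50% for meiob. For sycp1 SPT-e gives no background, since 99.0% and 97.5% of SPT-e cells carried it. ccnb1 was seen in 13.3% and 10.9% of SPC-I cells, against 81.5% and 44.7% of SPG-B cells, with 39.7% and 33.5% in SPC-I and 93.3% and 61.6% in SPG-B unthinned, so the replicates of SPG-B differed widely in this cyclin, as its levels did. No cell type that lacks ccnb1 was at hand for its background.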

How the data were processed

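scRNA-seq was done by the study on testes of adult zebrafish, in 2 libraries. The authors mapped the reads to danRer11 with Cell Ranger (version 7.2.0 by the submitters' processing notes, 6.1.2 in the matrices themselves) and deposited raw UMI counts per gene and barcode, with no normalization. The files name genes by Ensembl identifiers, and 29210 of 32520 identifiers got a symbol from a reference table, printed in lower case. The kit version differs between the labels and the methods of the study.

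Cells with 200 to 7000 genes and at most 5% mitochondrial UMIs were kept (3018 and 5104), after the limits of the study. The stages of replicate 1 came from the study's annotation, of which 1999 cells were at hand, all of replicate 1, and 1998 matched the counts in their UMI total over genes seen in 3 or more cells. Further passing cells of replicate 1 outside it (907) got no stage. For replicate 2, log-normalised counts (10000 UMIs a cell) of 2000 variable genes, with 1033 listed genes kept out, gave 30 principal components of both libraries (scanpy 1.11.5, scikit-learn 1.9.0), and the 15 nearest annotated cells voted. Cells in Leiden clusters of nearly 1 replicate (934) or nearest to cells the study did not keep (190) got no stage. No doublets were removed, except as an alternative that left out the 5% of cells with the highest simulated-doublet score. The libraries shared 8 barcodes.

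UMIs were summed per stage and replicate (14 sums), and all sums were fitted with edgeR 4.0.16 (R 4.3.3, filterByExpr, TMM, quasi-likelihood test, Benjamini-Hochberg adjustment over 14041 genes). The 4 sums compared held 1045980 to 5432442 UMIs. CPM are scaled by the TMM library sizes, except sums and levels of cell type markers in the check of the labels, which are per plain UMI total, and the difference within a replicate is that of log2 CPM with a prior count of 2. Each SE of a log2 fold change is its size divided by the square root of the quasi-likelihood F. It is thus not the spread of the 2 replicates' differences. The script of the tests was checked on simulated counts.

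The cells, gene lists and named genes were chosen with earlier results of these data known. The named genes are 54 key genes fixed by symbol, their paralogs, the 20 largest rises and falls by the smaller of the replicates' differences among called genes with at least 50 CPM in the higher stage and a usual symbol, and up to 4 called members per list and direction. Of the key genes, 3 had no unique identifier (syce3, meioc and setb) and 1 (tet3) fell below the filter. Of the 50 tested, 17 were called higher, 7 lower and 26 neither. iho1, syce2, trip13, mki67 and rplp0 were named from their lists after their values were seen. Of the lists, only members with exactly 1 identifier were used.

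Alternatives were DESeq2 1.42.0, its size factors, no filter, the replicate as a block, the number of cells as the scale, the 4 sums alone, each sum left out, other cell limits, other settings of the vote, labels voted in both replicates, other cells of library 1, and single clusters of the study. Promoter and protein sequences were not analysed here, and some genes of the rule are not reported here. Counts do not tell overlapping genes or close paralogs apart where the counting split their reads.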

Additional observations from a re-analysis of the deposited data

How the results depend on the processing

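Over all settings, and with the genes called here that could be tested again, almost every gene kept its direction, but the counts moved. Leaving out 1 of the 4 sums, with the lone sum of that stage assumed to vary like the other stages, gave 1329 to 1838 genes called higher and 697 to 1125 called lower. Cluster 0 alone as SPC-I gave 1180 genes higher, and cluster 4 alone gave 1945 lower. A fold limit of 2 on the log2 scale gave 1116 higher and 272 lower. Scaling genes within each replicate before the vote, an alternative chosen after seeing the data, gave 1773 lower. The other settings stayed within 1.5 times the reported counts. No count of calls could be given without replicate 1 or 2 as a whole, since 1 sum per stage gives no test.

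With the replicate number as a block, 2362 genes were higher and 1293 lower, of which 2149 and 1155 were among those called here. The block cost 0 of the 147 named calls. The numbers pair the sums, since SPC-I and SPG-B of a number come from the same library, and their deviations had a correlation of 0.18. Of the 147 named calls, 87 held in all 27 settings. Leaving out a sum cost calls. Without SPC-I replicate 1, 21 were lost (ankrd31, canx, cdk2, cdkn1a, dnajb6a, dnd1, lin9, majin, meiob, nanog, npm2b, orc1, orc4, rad21l1, sall4, sumo3b, sun1, sycp3, syne2a, tdrd3 and tsr3). Without SPC-I replicate 2, 20 were lost (cdkn1a, chek2, dnd1, hk1, hormad1, lin9, majin, mbd2, nanog, npm2b, orc1, orc2, sall4, sumo3b, sun1, sycp3, syne2a, tdrd3, tsr3 and ube2b). Without SPG-B replicate 1, 22 were lost (cdc25b, cdkn1a, dnajb6b, dnajc3a, dnd1, eef2b, eif4b, hk1, kif11, kpna2, majin, nanog, npm2b, orc1, orc2, orc4, rac2, sae1, sall4, sun1, sycp3 and tsr3). Without SPG-B replicate 2, 17 were lost (canx, cdkn1a, chek2, kitb, lin9, majin, nanog, npm2b, orc1, orc2, rad21l1, sumo3b, syne1b, syne2a, tcof1, tsr3 and ube2b). DESeq2 lost 14 and its size factors in edgeR lost 13, sycp3, rad21l1 and majin in both.

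Direction turned in 12 named genes, of which ube2b alone was called, with a log2 fold change of -0.13 for cluster 0 as SPC-I. With a sum or a replicate left out the log2 fold change ranged from -1.36 to 0.38 for ccnb2, -0.61 to 0.74 for cdk1, -0.56 to 0.97 for dnmt1, -0.16 to 0.26 for e2f5, -0.25 to 0.29 for stag3, -0.40 to 0.040 for top2a and -1.59 to 0.046 for pcna. Cluster 10 as the only SPG-B cells gave 0.73 for ccnb2, 1.55 for cdk1, -0.32 for dnmt1, -0.17 for e2f5 and -0.16 for stag3. Cluster 4 as the only SPC-I cells gave -1.39 for dnmt1, -1.06 for e2f5, -1.52 for stag3, -0.24 for esco2, -0.12 for hmgb1b, -0.72 for psmc3ip and -0.44 for rec8b. Voted labels in both replicates gave 0.17 for cdk1, -0.041 for dnmt1 and -0.033 for stag3, and further cells of library 1 gave 0.16 for cdk1 and -0.26 for dnmt1.

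For e2f5 and stag3 the values were -0.070 and -0.17 with DESeq2's size factors, -0.070 and -0.17 with DESeq2, -0.046 and -0.14 with the 4 sums only, -0.14 and -0.23 when scaled by the number of cells, -0.065 and -0.016 without likely doublets, -0.12 and -0.20 with 30 neighbours, and -0.063 and -0.042 with the listed genes open to the vote. e2f5 was at -0.018 with 50 components and -0.023 with at least 10 votes, and stag3 at -0.041 without a filter and -0.00189 with 15 components. The cause was not tested. Shares of cells with a UMI moved with the depth to which cells were thinned, in 131 of 144 values. The ratio of median UMIs was 0.973 under a mitochondrial limit of 10%. Depth was least in SPG-B of replicate 2, at 1045980 UMIs, where 1 UMI is close to 1 CPM.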
